A study of Macaca mulatta with 30 samples.

Results

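The genes described here encode proteins of the pancreatic secretory granule (GP2, SYCN and ZG16), the REG family of secreted lectins and the SPINK family of serine protease inhibitors. Members were the rows of the deposited expression table named GP2, SYCN or ZG16, or carrying a REG1, REG3 or REG4 name or a SPINK name with a digit, provided that 1 tissue or more had a mean of 1 TPM or above (TPM being transcript abundance corrected for transcript length and scaled to a fixed library total). Of 21292 gene names, 17 matched and 11 reached that level: GP2, SYCN, ZG16, REG1A, REG1B, SPINK1, SPINK2, SPINK5, SPINK6, SPINK7 and SPINK8. RNA sequencing had been performed on 5 tissues of 6 rhesus macaques: pancreas, liver and the parotid, submandibular and sublingual salivary glands, with 1 library per tissue and animal and 30 libraries in all. The study asked how salivary glands and digestive organs of Old World monkeys differ in amylase expression, with tissues compared within each animal. All tissues were flash frozen, the 4 females were animals 1 to 4, the 2 males were animals 5 and 6, and no treatment or genotype was named. Ages and strains are not given in the sources used here. The parotid of animal 3 was a right gland per its library name, and the other parotids were left glands.

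Acinar cells of the pancreas pack digestive enzymes, many of them as inactive zymogens, into granules that are released into the duct by exocytosis. GP2, a lipid-anchored glycoprotein, is a major protein of the granule membrane, and ZG16, a jacalin-like lectin, and SYCN, or syncollin, lie on the inner face of that membrane. SPINK1 is packed with the zymogens and blocks trypsin that becomes active too early, while other SPINK proteins, which share its Kazal inhibitor domain, act in epithelia and in germ cells. REG proteins are small C-type lectin-like proteins secreted by acinar cells and by the gut, known for their induction in inflamed or regenerating tissue.

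The tissue labels were checked against marker genes. In 5 pancreas libraries the 7 acinar markers in the table summed to between 176332 and 351997 TPM, but in the pancreas library of animal 4 they summed to 3907 TPM, beside an adipose marker sum of 18013 TPM against 17.9 to 1700 TPM in the other 5. The submandibular library of animal 4 had a salivary marker sum of 1641 TPM against a tissue median of 268882 TPM, and an adipose marker sum of 7840 TPM. In the sublingual gland, 6 markers of stratified squamous epithelium, the layered lining of skin and mouth, summed to 29101 TPM in animal 1 and 77388 TPM in animal 4, and to at most 464 TPM in the other 4 libraries. Skeletal muscle markers were highest in the parotid of animal 6 at 97916 TPM and the sublingual gland of animal 5 at 27335 TPM. No marker was at 0 in every library of a tissue. Between 8477 and 13515 genes per library reached 1 TPM. The number of reads behind each value is unknown, so no counting error can be given. The exact p-values given below measure the spread of differences between the 6 animals. Those of the linear model (limma) use 1 spread per gene over all 30 libraries, drawn towards that of other genes. They do not measure the spread between animals in a single comparison.

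GP2, ZG16 and SPINK1 were among the most abundant transcripts of the pancreas and were lower by about 2 orders of magnitude in the other 4 tissues. REG1A and REG1B were also highest in the pancreas, at lower levels. SYCN, although a granule protein, was low in the pancreas and did not differ between tissues beyond the spread of the animals. The remaining 5 SPINK genes had their highest mean in the sublingual gland, but only SPINK8 was higher there in every library than in all other tissues. For SPINK2, SPINK5 and SPINK7 that mean rested on animals 1 and 4, whose sublingual libraries were high in squamous markers. The SPINK7 median was 27.0 TPM in the sublingual gland and 29.4 TPM in the pancreas. SPINK6 was at 0 in 3 sublingual libraries.

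GP2 measured 9535 TPM in the pancreas of animal 1, 8618 TPM in animal 2, 1857 TPM in animal 3, 59.2 TPM in animal 4, 2684 TPM in animal 5 and 5652 TPM in animal 6. Animals 1 and 2 were highest, and animal 4, whose acinar markers were also lowest, was far below the rest. The mean was 4734 ± 3829 TPM (SD, n = 6), the 33rd highest of all genes in pancreas means. Elsewhere the lowest, median and highest GP2 values were 18.4, 50.7 and 99.2 TPM in liver, 10.1, 37.8 and 87.0 TPM in the sublingual gland, 6.97, 41.2 and 64.4 TPM in the parotid, and 21.3, 26.8 and 47.5 TPM in the submandibular gland. Without animal 4, every pancreas library lay above every library of the other tissues, and within animal 4 the pancreas value still exceeded the other 4. In limma, a linear model fitted across all genes, the difference in log2(TPM + 1) was 6.07 ± 0.70 (SE) against parotid, 6.28 ± 0.70 against submandibular, 6.00 ± 0.70 against sublingual and 5.64 ± 0.70 against liver, with adjusted p-values of 7.52e-07, 5.76e-07, 6.68e-07 and 3.59e-07. Without the pancreas and submandibular libraries of animal 4 these GP2 differences were 7.09, 7.25, 7.02 and 6.66, about 2-fold more. Without animal 2 the difference against sublingual was 5.28. The smallest GP2 differences over 17 alternatives were 4.45, 4.83, 5.28 and 5.35 in the same order, and all stayed called. In bulk tissue, fewer cells of a type and less RNA per cell cannot be told apart.

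ZG16 measured 11798, 8407, 4897, 153, 18962 and 7252 TPM in the pancreas of animals 1 to 6, with a mean of 8578 ± 6396 TPM (SD, n = 6) and rank 22 among all genes. Animal 5 was highest and animal 4 lowest. Its median was 101 TPM in liver, 88.2 TPM in the sublingual gland, 67.3 TPM in the parotid and 61.8 TPM in the submandibular gland, where animal 4 reached 173 TPM and so exceeded its own pancreas. ZG16 was higher in the pancreas by 6.02 ± 0.74 (SE, log2) than in parotid, 6.29 ± 0.74 than in submandibular, 5.97 ± 0.74 than in sublingual and 5.55 ± 0.74 than in liver (limma adjusted p = 1.81e-06, 1.18e-06, 1.50e-06 and 1.14e-06). Without the pancreas and submandibular libraries of animal 4 the ZG16 differences were 7.01, 7.58, 6.96 and 6.54, and without animal 2 the difference against sublingual was 5.34. The smallest ZG16 differences over 17 alternatives were 4.32, 4.79, 5.34 and 5.19 in the same order, and all stayed called.

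SPINK1, the trypsin inhibitor of pancreatic juice, measured 9219, 9231, 6902, 115, 11957 and 6918 TPM in the pancreas of animals 1 to 6 (mean 7390 ± 4024 TPM, SD, n = 6), rank 26 among all genes. Apart from animal 4 these values were close together: the highest was 1.73 times the lowest, against 5.14 times for GP2 and 3.87 times for ZG16 over the same 5 libraries. For scale, among 456 genes whose mean reached 100 TPM in those libraries the median ratio was 2.23, with quartiles of 1.74 and 3.27. SPINK1 thus lay at the lower quartile of abundant pancreatic genes, and GP2 and ZG16 varied more than the upper quartile. Elsewhere its lowest, median and highest values were 64.8, 92.6 and 179 TPM in liver, 30.3, 77.4 and 191 TPM in the sublingual gland, 28.1, 52.1 and 133 TPM in the parotid, and 27.4, 49.0 and 152 TPM in the submandibular gland. The submandibular library of animal 4, at 152 TPM, exceeded the pancreas of the same animal, and the other 5 animals had the opposite order. SPINK1 was higher in the pancreas by 6.21 ± 0.71 (SE, log2) than in parotid, 6.27 ± 0.71 than in submandibular, 5.61 ± 0.71 than in sublingual and 5.37 ± 0.71 than in liver (limma adjusted p = 7.04e-07, 6.89e-07, 2.13e-06 and 1.01e-06). Without the pancreas and submandibular libraries of animal 4 these SPINK1 differences were 7.20, 7.60, 6.60 and 6.36. The smallest SPINK1 differences over 17 alternatives were 4.52, 4.77, 5.09 and 5.02 in the same order, and all stayed called.

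**Figure D1:**
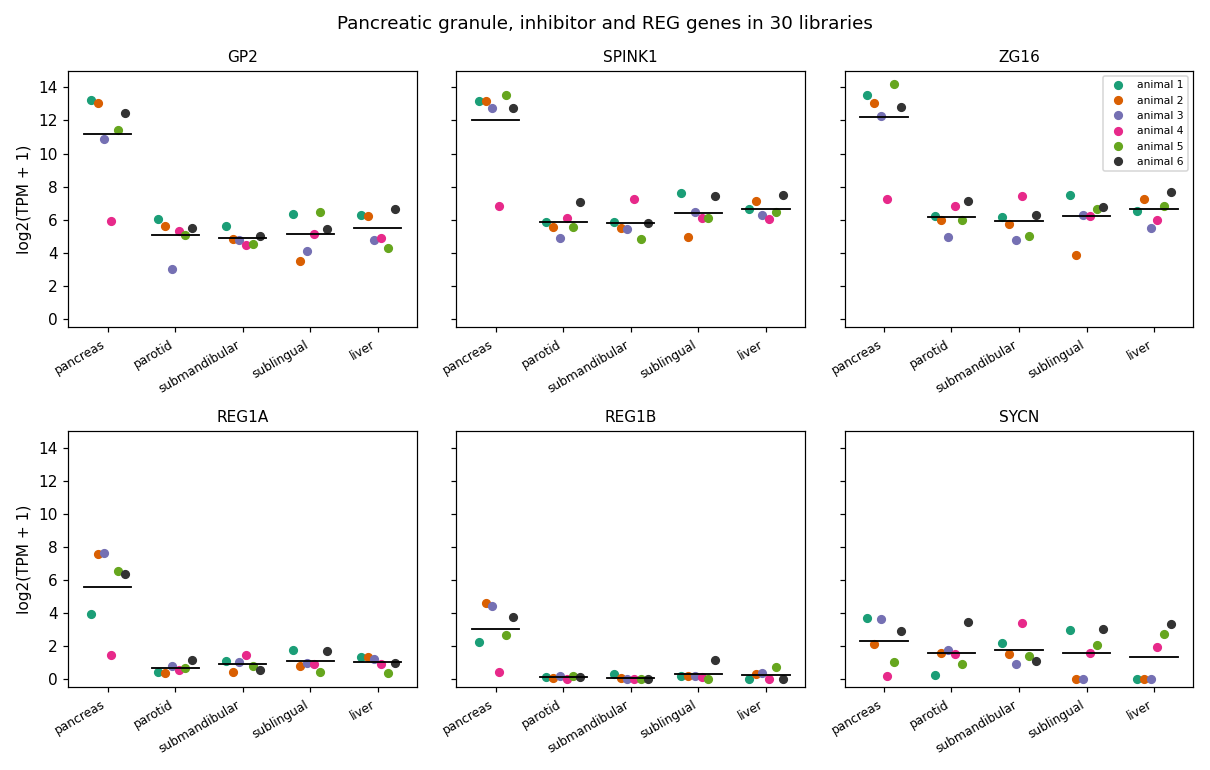
Log2(TPM + 1) of GP2, SPINK1, ZG16, REG1A, REG1B and SYCN in each of 30 libraries, grouped by tissue, with colours for the 6 animals and a bar at the mean of the 6 log2 values. GP2, SPINK1 and ZG16 stand far above the other tissues in 5 pancreas libraries, animal 4 falls near the level of the other tissues, and the SYCN values of all 5 tissues overlap.

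The differences within animals were also tested without reference to other genes, by an exact permutation test that flips their signs (two-sided), for GP2, SYCN and SPINK1 against each of the 4 tissues, 12 tests in all. GP2 was higher in the pancreas of 6 of 6 animals in all 4 comparisons, each with an exact p of 0.031, the smallest value that the test can give with 6 animals. SPINK1 gave the same p in 3 comparisons and an exact p of 0.0625 against the submandibular gland, where 5 of 6 animals had the higher pancreas value. In all, 7 of the 12 exact tests fell below 0.05, and none did after Benjamini-Hochberg adjustment over the 12.

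The limma counts over the 11 members set these genes beside the rest of the table. Against parotid, 5 members were higher in the pancreas and 0 lower, where 15.8% of all 13550 tested genes were called (13.6% higher and 2.24% lower). Against the submandibular gland the count was again 5 higher and 0 lower, with 9.71% of all genes called (7.46% higher, 2.25% lower). Against the sublingual gland 5 members were higher and 2 lower, with 13.9% of all genes called (3.51% higher, 10.4% lower). Against liver 5 members were higher and 0 lower, with 30.4% of all genes called (6.76% higher, 23.6% lower). The 5 higher members were GP2, ZG16, SPINK1, REG1A and REG1B in every case, and SPINK6 and SPINK8 were the 2 lower ones. REG1B and SPINK8 became members, and reached the level needed for testing, through the tissue where they were high, with 1 library each elsewhere. Their calls therefore add no support to the counts. Without them the higher members were GP2, ZG16, SPINK1 and REG1A, and the lower one was SPINK6. The median difference over the 11 members was 1.40, 2.27, 0.68 and 0.95 (log2) against parotid, submandibular, sublingual and liver, beside 0.48, 0.33, -0.23 and -0.36 over all genes tested. With trimmed-mean scaling, 1145 of 2353 called genes were higher in the pancreas than in parotid, in place of 1838 of 2141, and the corresponding numbers were 1060 of 2178 in place of 1011 of 1316 against submandibular, 1351 of 2890 in place of 475 of 1887 against sublingual, and 2064 of 4992 in place of 916 of 4114 against liver. The same 5 members stayed higher in the pancreas with that scaling, and SPINK6 was no longer called against the sublingual gland.

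**Figure D2:**
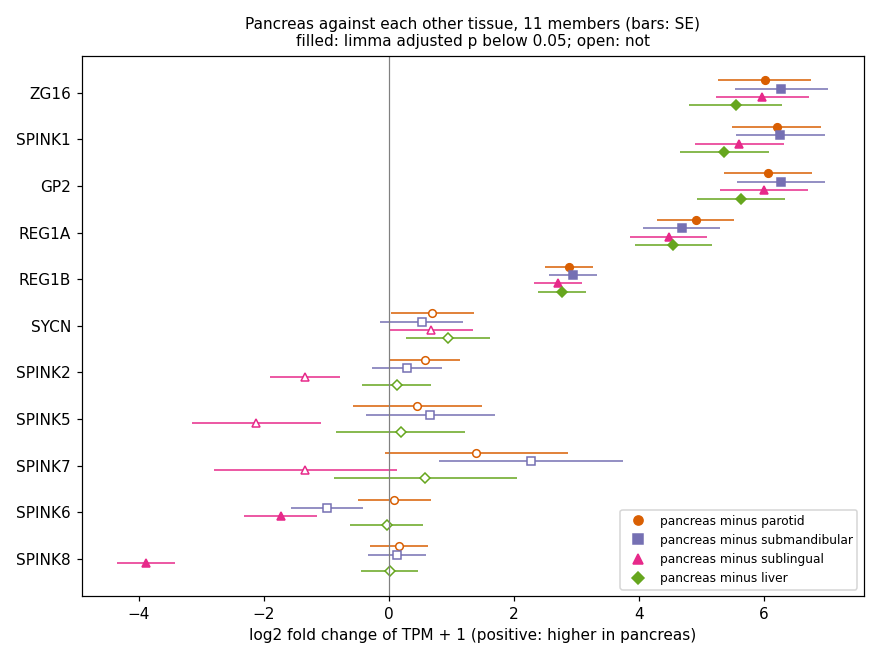
Difference in log2(TPM + 1) between the pancreas and each other tissue for the 11 members, with bars of 1 SE from limma, filled where the adjusted p is below 0.05 and open where it is not. ZG16, SPINK1 and GP2 lie between 5.37 and 6.29 in all 4 comparisons, SYCN stays between 0.53 and 0.95 with open symbols, and SPINK8 falls at -3.88 against the sublingual gland only.

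As a share of the pancreas mean, GP2, SPINK1, ZG16, REG1A and REG1B were near the digestive enzymes in the other tissues. SYCN was not, at between 49.6% (parotid) and 54.8% (sublingual) of its pancreas mean, nor were the SPINK members other than SPINK1. Parotid means were 0.826% of the pancreas mean for GP2, 0.852% for SPINK1, 0.923% for ZG16, 0.647% for REG1A and 0.878% for REG1B, while 16 digestive enzyme genes ranged from 0.583% (the trypsinogen PRSS1) to 2.67% (the amylase AMY2B) with a median of 0.845%. In the submandibular gland GP2 was at 0.621%, SPINK1 at 0.849% and ZG16 at 0.836%, beside an enzyme median of 0.668%. In the sublingual gland the values were 0.944%, 1.38% and 1.06%, beside an enzyme median of 0.875%, and in liver 1.13%, 1.46% and 1.30%, beside an enzyme median of 1.14%. Most of these members were thus within the range of the enzymes in each tissue, REG1B in the submandibular gland (0.468%), the sublingual gland (2.67%) and liver (1.92%) being outside it. Between the 4 tissues other than pancreas, no difference in GP2, ZG16, SPINK1, REG1A or REG1B was called by limma in all 30 libraries. Without animal 4, SPINK1 was lower in parotid than in liver by -1.02 (log2, adjusted p = 0.0190) and in submandibular by -1.32 (adjusted p = 0.00305), and ZG16 was lower in submandibular than in liver by -1.16 (adjusted p = 0.0282). With all animals and trimmed-mean scaling these SPINK1 and ZG16 differences were positive and small, 0.36, 0.093 and 0.26. The part of RNA or reads carried over from pancreas libraries in these low levels was not tested.

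Per 1000 TPM of the 16 enzyme genes, GP2 had a median of 10.8 TPM in pancreas (range 5.90 to 20.5), 13.4 in parotid (6.33 to 17.5), 14.9 in submandibular (5.40 to 18.3), 12.1 in sublingual (7.82 to 33.8) and 13.5 in liver (6.58 to 19.2). The ranges overlapped between all tissues. SPINK1 had medians of 20.3, 21.3, 23.2, 35.9 and 27.3 TPM per 1000 in pancreas, parotid, submandibular, sublingual and liver, and ZG16 22.3, 26.5, 26.5, 27.5 and 28.8. For SPINK1 the sublingual range, 21.6 to 46.4, and the pancreas range, 13.3 to 27.0, still overlapped. SYCN differed, with a median of 0.0193 TPM per 1000 in pancreas and 0.679, 1.06, 0.884 and 0.610 in the other tissues in that order. The pancreas of animal 4 did not stand apart on this scale, although GP2, SPINK1, ZG16 and the summed acinar markers were lowest there in TPM.

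**Figure D3:**
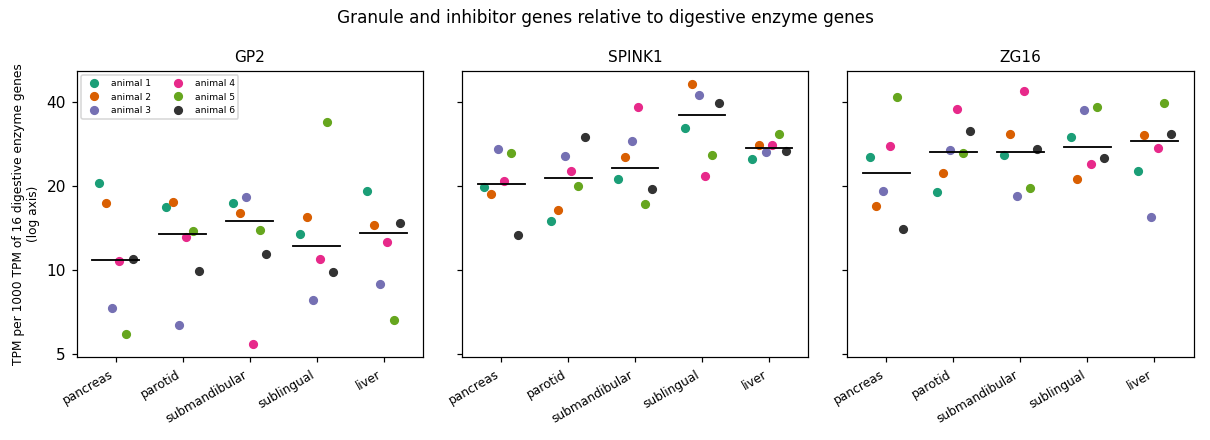
TPM of GP2, SPINK1 and ZG16 per 1000 TPM of 16 digestive enzyme genes in each library, on a log axis, grouped by tissue with colours for animals and a bar at the median. The ranges of all 5 tissues overlap for each gene, from 5.40 to 33.8 for GP2, and the pancreas of animal 4 lies among the others.

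SYCN was present at low levels everywhere. In the pancreas it measured 12.2, 3.45, 11.6, 0.160, 1.06 and 6.48 TPM in animals 1 to 6 (mean 5.82 ± 5.19 TPM, SD, n = 6), rank 5976 among all genes. Its median was 1.93 TPM in parotid, 1.75 TPM in submandibular, 2.56 TPM in sublingual and 1.41 TPM in liver, with highest values of 9.997, 9.70, 7.24 and 9.003 TPM. The pancreas range overlapped that of every other tissue, and the lowest pancreas library was again animal 4. The pancreas minus the other tissue was 0.70 (95% interval -0.67 to 2.07) against parotid, 0.53 (-0.84 to 1.90) against submandibular, 0.68 (-0.69 to 2.05) against sublingual and 0.95 (-0.42 to 2.31) against liver, on the log2 scale. None was called (limma adjusted p = 0.432, 0.666, 0.580 and 0.299), and the exact permutation p-values were 0.375, 0.5625, 0.5 and 0.375. These intervals lie below the differences of GP2 and SPINK1, but SYCN did not exceed 12.2 TPM in any pancreas library. On log2(TPM + 1) so low a level cannot give differences of that size. No conclusion on the SYCN fold change is therefore drawn from that comparison. SYCN is listed among pancreatic granule genes, and in this table it did not separate the pancreas from the other tissues. The transcript models behind the SYCN values are not given in the sources used here.

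Of the matched REG names, REG1A and REG1B reached 1 TPM in a tissue mean, both with their highest mean in the pancreas. A REG gene listed under an identifier in place of a name would not have been matched. REG1A means were also above 1 TPM in the sublingual gland (1.28 TPM) and liver (1.09 TPM). REG1A, which encodes the pancreatic stone protein lithostathine, measured 14.6, 189, 197, 1.73, 91.0 and 81.4 TPM in the pancreas of animals 1 to 6 (mean 95.7 ± 83.1 TPM, SD, n = 6). Animals 2 and 3 were highest, and animals 1 and 4 were lowest. No library of another tissue exceeded 2.43 TPM, so all pancreas libraries but animal 4 stood above all other libraries. REG1B, its close relative, measured 3.77, 23.1, 20.5, 0.345, 5.25 and 12.5 TPM in the same libraries (mean 10.9 ± 9.36 TPM) and at most 1.26 TPM elsewhere. REG1A was higher in the pancreas by 4.91 ± 0.62 (SE, log2) than in parotid, 4.69 ± 0.62 than in submandibular, 4.48 ± 0.62 than in sublingual and 4.56 ± 0.62 than in liver (limma adjusted p = 2.27e-06, 6.28e-06, 6.85e-06 and 1.40e-06). For REG1B the differences were 2.89, 2.95, 2.71 and 2.77, each ± 0.39 (limma adjusted p = 5.30e-06, 5.46e-06, 1.05e-05 and 2.11e-06). Without the pancreas and submandibular libraries of animal 4 they were 5.72, 5.63, 5.28 and 5.36 for REG1A and 3.37, 3.45, 3.19 and 3.25 for REG1B. REG1B became a member and reached the level for testing through the pancreas, so its p-values are no independent support for the difference. How reads shared by REG1A and REG1B were assigned is not given in the sources used here, so the level of either gene is uncertain.

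REG1A and REG1B spread more widely between pancreases than GP2 and ZG16 did. Over the 5 libraries without animal 4, the highest value was 13.5 times the lowest for REG1A, 6.11 times for REG1B and 11.5 times for the low granule gene SYCN. The upper quartile of genes with a mean of at least 100 TPM was 3.27. REG1A, with a mean of 114 TPM in these libraries, reached that level. REG1B (13.0 TPM) and SYCN (6.95 TPM) did not, so their ratios are not compared with that quartile. Animal 1 combined the highest GP2 value with the lowest REG1A value of these 5. Islet markers, which differ with the amount of endocrine tissue, summed to 12707, 7205, 132639, 450, 11434 and 10449 TPM in animals 1 to 6. The pancreas with by far the most islet signal, animal 3, had the highest REG1A level, but animals 1 and 2, with islet sums of the same order, were at 14.6 and 189 TPM of REG1A. The part of islet content in the REG1A levels was not tested.

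A gene with an identifier in place of a name, LOC711810, is the neighbour of REG1A in the RefSeq annotation of assembly T2T-MMU8v2.0, on the side away from REG1B. It is no member and was chosen after its values were seen, so its p-values below are a description and cannot support a difference. LOC716856 and LOC716890, looked up with it, had pancreas means of 2.52 and 0 TPM. LOC711810 measured 6.40, 926, 348, 4.83, 1073 and 17.1 TPM in the pancreas of animals 1 to 6, and between 0.492 and 24.9 TPM in the other tissues. Animals 2, 3 and 5 were high and the other 3 pancreases were within the range of the other tissues. The highest was 168 times the lowest over the 5 libraries without animal 4. LOC711810 was higher in the pancreas by 4.12 ± 1.00 (SE, log2) than in parotid, 4.49 ± 1.00 than in submandibular, 3.72 ± 1.00 than in sublingual and 3.93 ± 1.00 than in liver (limma adjusted p = 0.00554, 0.00335, 0.0114 and 0.00351). Against the sublingual gland the LOC711810 call was lost without animal 2 (2.74, adjusted p = 0.123), animal 3 (3.30, adjusted p = 0.0639) or animal 5 (2.97, adjusted p = 0.0774). Against the submandibular gland it was lost without animal 5 (3.50, adjusted p = 0.0502). Leaving out 1 animal moved the LOC711810 differences between 3.33 (animal 2) and 4.86 (animal 4) against parotid, 3.50 (animal 5) and 5.60 (animal 1) against submandibular, 2.74 (animal 2) and 4.52 (animal 6) against sublingual, and 3.23 (animal 3) and 4.61 (animal 4) against liver. Animal 1 was low and animals 2 and 3 high in both LOC711810 and REG1A, while animal 6 was low in LOC711810 with 81.4 TPM of REG1A.

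**Figure D4:**
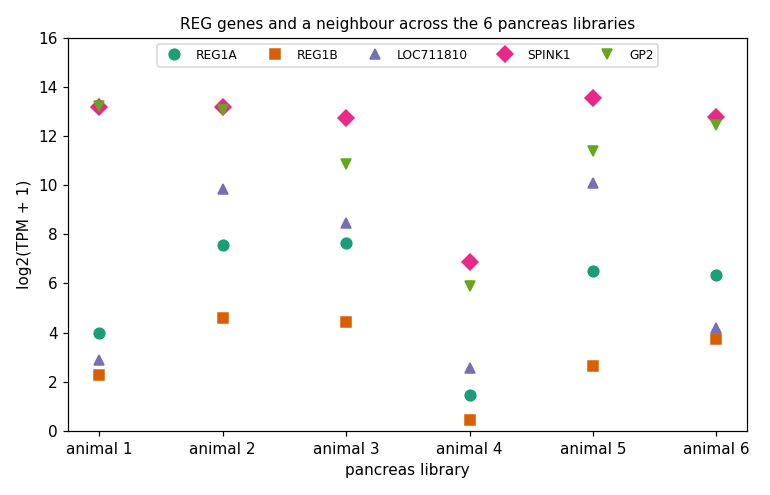
Log2(TPM + 1) of REG1A, REG1B, their neighbour LOC711810, SPINK1 and GP2 in the 6 pancreas libraries, 1 marker shape per gene. SPINK1 is nearly level across the 5 animals other than animal 4, while REG1A ranges from 14.6 to 197 TPM and LOC711810 from 6.40 to 1073 TPM among them.

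The other REG names stayed under the level minimum. REG3G, a bactericidal lectin of the intestine, was listed at 0 in all 30 libraries, and REG4, a gastrointestinal family member, had its highest mean in the pancreas at 0.191 TPM. Of 11 genes for candidate REG receptors and for the cytokine signals upstream of REG genes, a list chosen as background, 3 were higher in the pancreas than in parotid and 0 lower. The counts were 2 and 0 against submandibular, 1 and 0 against sublingual, and 1 and 4 against liver. Over all genes tested, the higher shares were 13.6%, 7.46%, 3.51% and 6.76% against parotid, submandibular, sublingual and liver. The lower shares were 2.24%, 2.25%, 10.4% and 23.6%. Counts this small are not read as a result about the list. IL22RA1, the IL-22 receptor subunit, was higher in the pancreas in all 4 comparisons, by 5.63, 5.73, 4.70 and 4.07 ± 0.65 (SE, log2; limma adjusted p = 7.52e-07, 6.89e-07, 7.65e-06 and 1.84e-05). EXTL3, a proposed REG receptor, differed by 0.21, 0.10, 0.15 and 0.32 ± 0.35 and was not called (limma adjusted p = 0.654, 0.890, 0.839 and 0.518). In liver, GPLD1, a phospholipase that cleaves GPI anchors, was higher than in pancreas by 4.19 ± 0.21 and the cytokine receptor subunit IL6ST by 1.68 ± 0.44, given as pancreas minus liver of -4.19 and -1.68 (limma adjusted p = 4.52e-15 and 0.00416).

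Among the SPINK genes other than SPINK1, SPINK5 and SPINK7 were high in the sublingual libraries of animals 1 and 4. SPINK7, an inhibitor known from oesophageal epithelium, measured 4508 TPM in animal 1 and 14161 TPM in animal 4, and 18.1, 0.578, 36.0 and 0 TPM in animals 2, 3, 5 and 6. SPINK5, or LEKTI, which restrains kallikrein proteases in layered epithelia, measured 606 and 1176 TPM in animals 1 and 4, and 2.68, 0.276, 4.71 and 0.252 TPM in the others. SPINK2, known as an acrosin inhibitor of male germ cells, measured 31.4 and 18.6 TPM in animals 1 and 4 and at most 1.76 TPM in the others. These are the 2 libraries in which the squamous epithelium markers were high, the keratin KRT13 among them at 10694 and 34537 TPM against at most 130 TPM in the other 4. The same libraries had the lowest salivary marker sums, 14935 and 2668 TPM against 53325 to 118737 TPM. The part of squamous epithelium in the SPINK5, SPINK7 and SPINK2 levels was not tested.

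In the other tissues SPINK7 ranged from 0 to 63.1 TPM and SPINK5 from 0.00718 to 6.37 TPM, and the sublingual libraries of animals 2, 3, 5 and 6 lay inside those ranges. The SPINK7 difference was not called in any comparison with the sublingual gland: pancreas minus sublingual was -1.34, parotid minus sublingual -2.74, submandibular minus sublingual -3.61 and sublingual minus liver 1.92, each ± 1.47 (SE, log2; limma adjusted p = 0.631, 0.129, 0.0668 and 0.359). SPINK5 was higher in the sublingual gland than in parotid (parotid minus sublingual -2.57 ± 1.03, limma adjusted p = 0.0478) and submandibular (-2.79 ± 1.03, adjusted p = 0.0455). It was not called against pancreas (-2.12, adjusted p = 0.195) or liver (2.31, adjusted p = 0.0932). Without the sublingual libraries of animals 1 and 4 no SPINK5 call remained: the difference was 0.07 for parotid minus sublingual (adjusted p = 0.921) and -0.15 for submandibular minus sublingual (adjusted p = 0.855). For parotid minus sublingual the SPINK5 call was also lost without animal 1 (-1.67, adjusted p = 0.237), animal 2 (-2.89, adjusted p = 0.0761), animal 3 (-3.02, adjusted p = 0.0562), animal 4 (-1.56, adjusted p = 0.136) or animal 5 (-3.01, adjusted p = 0.0710). For submandibular minus sublingual it was lost without animal 1 (-1.70, adjusted p = 0.325), animal 2 (-3.20, adjusted p = 0.0864), animal 4 (-1.86, adjusted p = 0.0700) or animal 5 (-3.16, adjusted p = 0.0809). In all, the SPINK5 call against parotid was kept in 2 of 16 alternatives, with 13 losses and 1 reversal, and that against submandibular in 4 of 16. Both were also lost with no replicate block (adjusted p = 0.0718 and 0.0726), only the 12 libraries compared, trimmed-mean or quantile scaling, no filter or a pseudocount of 0.1.

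SPINK2 was higher in the sublingual gland than in parotid (parotid minus sublingual -1.91 ± 0.56, SE, log2; limma adjusted p = 0.00980), submandibular (-1.63 ± 0.56, adjusted p = 0.0317) and liver (sublingual minus liver 1.46 ± 0.56, adjusted p = 0.0475), and not called against pancreas (-1.34, adjusted p = 0.121). Without the sublingual libraries of animals 1 and 4 the SPINK2 values were -0.82, -0.55 and 0.37 and none was called (adjusted p = 0.160, 0.396 and 0.631). Without animal 1 alone they were -1.34, -0.96 and 1.11 (adjusted p = 0.0671, 0.259 and 0.128). The submandibular call was also lost without animal 2 (-1.83, adjusted p = 0.0686) or animal 5 (-1.72, adjusted p = 0.0784), and the liver call without animal 4 (0.90, adjusted p = 0.205), animal 5 (1.61, adjusted p = 0.0707) or animal 6 (1.66, adjusted p = 0.0583). Against pancreas SPINK2 was called without animal 3 (-1.93, adjusted p = 0.0377). Over the 16 alternatives the SPINK2 call was lost in 3 against parotid, 8 against submandibular and 11 against liver. The submandibular and liver calls were also lost with no replicate block (adjusted p = 0.0533 and 0.0730), only the 12 libraries compared (adjusted p = 0.0784 and 0.0820) or no filter (adjusted p = 0.0543 and 0.0736), and the liver call with a pseudocount of 0.1 (adjusted p = 0.09998) or without the variance trend (adjusted p = 0.0554).

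SPINK8 showed the opposite pattern within the sublingual gland. It measured 5.14 and 3.02 TPM in animals 1 and 4, and 58.0, 57.4, 10.5 and 54.0 TPM in animals 2, 3, 5 and 6 (mean 31.3 ± 27.7 TPM, SD, n = 6). Every sublingual library lay above every library of the other 4 tissues, in which SPINK8 did not exceed 1.12 TPM. SPINK8 was higher in the sublingual gland than in pancreas (pancreas minus sublingual -3.88), parotid (-4.05), submandibular (-4.02) and liver (sublingual minus liver 3.90), each ± 0.46 (SE, log2; limma adjusted p = 7.95e-07, 7.83e-07, 2.31e-06 and 1.27e-07). These calls held in all 16 alternatives that tested the gene, and without the sublingual libraries of animals 1 and 4 the SPINK8 values were -4.87, -5.04, -5.01 and 4.89. SPINK8 became a member and reached the level for testing through the sublingual gland. Its adjusted p-values are therefore no independent support for that difference. ZG16B, a secreted lectin of salivary glands related to ZG16, was also lowest in animals 1 and 4: 31360 and 2016 TPM, with 300050, 219405, 143860 and 332616 TPM in the others. The salivary mucin MUC7 was likewise lowest there, at 1401 and 184 TPM against 6310 to 27189 TPM. The mucin MUC19 was also lowest there, at 1.03 and 3.22 TPM against 13.0 to 391 TPM. The mucin MUC5B was not, with 2.64, 65.4, 13.8, 14.8, 13.4 and 0.128 TPM in animals 1 to 6.

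SPINK6, a kallikrein inhibitor known from skin, was listed at 0 in the sublingual glands of animals 1, 2 and 4 and measured 27.7, 12.4 and 18.7 TPM in animals 3, 5 and 6. In the submandibular gland it ranged from 0 to 5.51 TPM and in the other 3 tissues it did not exceed 1.36 TPM. SPINK6 was higher in the sublingual gland than in pancreas (pancreas minus sublingual -1.73 ± 0.58, SE, log2; limma adjusted p = 0.0478), parotid (-1.82 ± 0.58, adjusted p = 0.0166) and liver (sublingual minus liver 1.70 ± 0.58, adjusted p = 0.0269). It was not called against submandibular (-0.74 ± 0.58, adjusted p = 0.348). These 3 calls were lost without animal 3 (-1.11, -1.36 and 1.19; adjusted p = 0.276, 0.0949 and 0.155), animal 5 (-1.57, -1.43 and 1.48; adjusted p = 0.138, 0.105 and 0.0939) or animal 6 (-1.37, -1.32 and 1.30; adjusted p = 0.174, 0.0717 and 0.136). Without the sublingual libraries of animals 1 and 4 all 4 SPINK6 comparisons were called, at -2.63, -2.72, 2.60 and, for submandibular minus sublingual, -1.64 (adjusted p = 0.00263, 0.00147, 0.00116 and 0.0467). Over the 16 alternatives the SPINK6 call was lost in 11 against pancreas, 8 against parotid and 5 against liver. Among them were the fit to only the 12 libraries compared (adjusted p = 0.124, 0.0765 and 0.0786) and a pseudocount of 0.1 (adjusted p = 0.195, 0.0696 and 0.203) for all 3, trimmed-mean and quantile scaling for pancreas and parotid, and no replicate block (adjusted p = 0.0794) for pancreas.

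**Figure D5:**
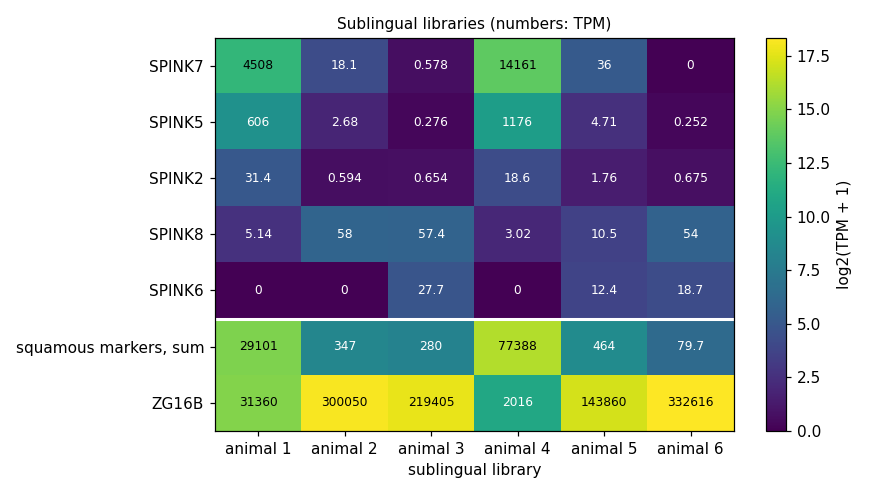
TPM of 5 SPINK genes, the summed squamous epithelium markers and ZG16B in the 6 sublingual libraries, 1 column per animal, with colour for log2(TPM + 1) and the TPM printed in each cell. SPINK7, SPINK5 and SPINK2 are high in animals 1 and 4 together with the squamous markers, while SPINK8 and ZG16B are lowest in those 2 libraries.

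In member counts, 4 of 11 members were lower in parotid than in the sublingual gland and 0 higher, where 41.5% of all genes were called (0.893% higher, 40.6% lower), a share of the same size as that of the members. For submandibular against sublingual the count was 3 lower and 0 higher, with 27.9% of all genes called (0.753% higher, 27.2% lower). For sublingual against liver it was 3 higher and 0 lower, with 31.5% of all genes called (12.8% higher, 18.7% lower). The member medians were -0.60, -0.66 and 0.27 (log2), beside -0.70, -0.56 and -0.10 over all genes. With trimmed-mean scaling, 1142 of 2376 called genes were higher in parotid than in sublingual in place of 121 of 5625, and 876 of 1995 in submandibular in place of 102 of 3787. Leaving out the sublingual libraries of animals 1 and 4 left 2 of the 4 parotid calls, those of SPINK6 and SPINK8. No member was called by limma between parotid and submandibular, parotid and liver, or submandibular and liver, and 0 members had an unadjusted p below 0.05 in any of the 3. Over all genes 0.347% were called between parotid and submandibular (0.133% higher and 0.214% lower in parotid), 58% between parotid and liver (4.61% higher, 53.4% lower) and 50.7% between submandibular and liver (5.68% higher, 45.1% lower). Without animal 4, 1 member, SPINK1, was called between parotid and liver, and 3, SPINK1, ZG16 and SPINK7, between submandibular and liver, where the SPINK7 value was -3.22 (adjusted p = 0.0207).

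Of the SPINK names under the level minimum, SPINK9 came nearest with a sublingual mean of 0.820 TPM, followed by SPINK4 with 0.314 TPM in the same gland, and SPINK13 and SPINK14 had no tissue mean above 0.107 TPM. The nearest members above it were SYCN with 5.82 TPM in pancreas, SPINK2 with 8.94 TPM and SPINK6 with 9.79 TPM in the sublingual gland. In the RefSeq annotation, SPINK14, SPINK6, SPINK13, SPINK7 and SPINK9 follow each other as neighbouring genes. Of these neighbours SPINK6 and SPINK7 were opposite in some of the sublingual libraries: animals 1 and 4 had the most SPINK7 and no SPINK6, animals 3 and 6 the least SPINK7 and the most SPINK6. Animal 2 also had no SPINK6, with 18.1 TPM of SPINK7, and animal 5 had 12.4 TPM of SPINK6 and 36.0 TPM of SPINK7. Over all 30 libraries the Pearson correlation of SPINK6 and SPINK7 in log2(TPM + 1) was -0.436.

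Serine proteases that SPINK proteins act on were taken as a list of 10, of which 7 could be tested. In the pancreas 4 were higher than in parotid and 1 lower, and the counts were 3 and 0 against submandibular, 2 and 3 against sublingual, and 3 and 0 against liver. Over all genes tested, 13.6%, 7.46%, 3.51% and 6.76% were higher in that order, and 2.24%, 2.25%, 10.4% and 23.6% lower. The list is too short for its counts to be read as a result. The trypsinogens PRSS1 and PRSS2, targets of SPINK1, were higher in the pancreas by 6.80 and 6.33 (log2) than in parotid and by 5.83 to 6.98 in the other comparisons (limma adjusted p at most 4.76e-07). Among the kallikreins that SPINK5 and SPINK6 inhibit, KLK7 was lower in the pancreas than in the sublingual gland by -1.92 ± 0.44 and KLK5 by -1.67 ± 0.38 (limma adjusted p = 0.00316 and 0.00263). Against parotid KLK5 was at -1.17 ± 0.38 (adjusted p = 0.0365), a call lost in 6 of 16 alternatives. Matriptase, or ST14, an epithelial membrane protease, was higher in the sublingual gland than in parotid (-1.91 ± 0.27), submandibular (-1.74 ± 0.27) and liver (3.48 ± 0.27), with limma adjusted p-values of 1.39e-05, 9.53e-05 and 3.01e-11.

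Relatives of GP2 and ZG16 did not move as a group. Over all genes tested, between 3.51% (against sublingual) and 13.6% (against parotid) were higher in the pancreas. Of 4 tested homologues, CUZD1, a zona pellucida domain protein of the acinar granule, was the 1 higher in the pancreas, by 6.02, 6.33, 6.17 and 5.73 ± 0.67 (SE, log2) against parotid, submandibular, sublingual and liver (limma adjusted p = 5.01e-07, 2.84e-07, 2.15e-07 and 1.08e-07). ZG16B was lower in the pancreas than in submandibular by -3.75 ± 0.81 and than in sublingual by -6.42 ± 0.81 (limma adjusted p = 0.00249 and 1.90e-06). Against parotid ZG16B stood at -0.46 and was not called (adjusted p = 0.672). DMBT1, a scavenger receptor of mucosal secretions, was lower in the pancreas than in the sublingual gland by -4.39 ± 0.75 (limma adjusted p = 0.000111). ZG16 and ZG16B thus had their highest levels in different organs, pancreas and sublingual gland.

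The proteins that share the granule with the members, as lists chosen for background, were counted in the same fit. Over all genes tested, 13.6%, 7.46%, 3.51% and 6.76% were higher in the pancreas than in parotid, submandibular, sublingual and liver. The shares lower in the pancreas were 2.24%, 2.25%, 10.4% and 23.6%. All 16 digestive enzyme genes in the table, of 22 listed, were higher in the pancreas in each of the 4 comparisons, with median differences of 6.16, 6.44, 6.27 and 5.72 (log2), beside 6.07, 6.28, 6.00 and 5.64 for GP2. Of 16 other granule or secretory pathway genes, 7 were higher and 0 lower in the pancreas than in parotid, 6 and 0 against submandibular, 5 and 3 against sublingual, and 9 and 1 against liver. PDIA2, a pancreatic protein-folding enzyme, was higher by 6.33, 6.56, 6.29 and 5.93 ± 0.63 (limma adjusted p = 1.30e-07, 1.51e-07, 7.52e-08 and 2.24e-08). The granule fusion protein VAMP8 was lower in the pancreas than in the sublingual gland by -2.24 ± 0.30 (limma adjusted p = 4.45e-06) and than in liver by -0.94 ± 0.30 (adjusted p = 0.0189), the latter turning to 0.19 with quantile normalisation. Among 6 tested regulators of acinar genes, 5 were higher and 0 lower in the pancreas in the 3 gland comparisons, and 2 higher and 1 lower against liver. RBPJL, the acinar subunit of the transcription factor PTF1, was higher in all 4, by 6.47, 6.51, 6.10 and 5.95 ± 0.64 (limma adjusted p = 1.21e-07, 1.51e-07, 1.38e-07 and 2.63e-08).

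Genes whose levels were most like those of GP2 and SPINK1 over the 30 libraries were digestive enzymes and their cofactors. Among 6267 eligible named genes, Pearson correlations of log2(TPM + 1) with GP2 were highest for CPB1 (0.992), PNLIP (0.987) and PRSS2 (0.986), and with SPINK1 for CLPS (0.994), PLA2G1B (0.992) and CELA3B (0.991). For SYCN the closest were EEF1A2 (0.496), ASB9 (0.494) and CTRC (0.478), so that no gene tracked it closely. The same measure was extended to other members after the values were seen. ZG16 was closest to PLA2G1B (0.993). REG1A was about equally close to the islet hormones SST (0.955) and GCG (0.953) and the enzyme CTRC (0.952), and its r with SPINK1 was 0.943. These values do not separate an islet from an acinar pattern for REG1A. SPINK5 was closest to PRSS27 (0.995) and SPINK7 to CRCT1 (0.993), both known from layered epithelia, and SPINK8 to CLDN24 (0.942). Between members, r was 0.988 for SPINK1 and ZG16, 0.967 for REG1A and REG1B, 0.945 for SPINK5 and SPINK7, and 0.014 for SPINK7 and SPINK8. The 30 points share 6 animals and 5 tissues and are not independent.

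Over all members, the summed TPM made up 2.09% ± 1.23 (SD, n = 6) of the pancreas total, from 0.0401% in animal 4 to 3.38%. GP2, SPINK1 and ZG16 accounted for 2.07% of that total. The members' share was 0.371% ± 0.617 in the sublingual gland, where it reached 1.55% in animal 4 through SPINK7 and SPINK5, and 0.0203% in parotid, 0.0187% in submandibular and 0.0311% in liver.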

How the data were processed

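RNA was extracted from frozen tissue sections and sequenced as paired reads of 150 bases on an Illumina HiSeq, per the labels' protocols. The authors deposited 1 table of TPM (reads per transcript length, scaled to the same total in every library) with 21292 gene names. Its name and the submitters' processing notes name kallisto. The notes also list FastQC, MultiQC, cutadapt, HISAT2, SAMtools and featureCounts, among others, with no roles. The kallisto version, transcriptome and genome build are not given in the sources used here, nor is the division of reads between similar or overlapping genes. There were 0 unused per-sample columns. Depth is unknown.

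The design allowed for counts. As the values are TPM, limma 3.58.1 (R 4.3.3) was fitted to log2(TPM + 1), a scale that makes fold changes of low genes too small. A gene was tested if 6 or more libraries held 1 TPM or more, as did 13550 genes and the 11 members. The model held tissue and animal over all 30 libraries, with a variance trend. P-values were two-sided and Benjamini-Hochberg adjusted within each of 10 tissue pairs over all genes, with a threshold of 0.05. Libraries of 1 animal came from the same animal per the labels. Their deviations from tissue means correlated at 0.161 on average over 60 pairs, against -0.0186 over 300 pairs of different animals. Exact sign-flip tests used scipy 1.17.1. The script was tested on simulated data. Members, comparison lists and marker lists were chosen with earlier results of these data known. Named genes were every member, the 3 genes most correlated with GP2, SYCN and SPINK1, and up to 2 called genes per list and direction. EXTL3, LOC711810, LOC716856, LOC716890, MUC5B, MUC7, MUC19 and KRT13 were added after their values were seen. Of the table's names, 19177 (90.1%) were found in the RefSeq table of T2T-MMU8v2.0, the 17 matching names among them, and coordinates are not printed as the build is not stated. Alternatives were no block, only the 12 libraries compared, other scalings, filters, pseudocount and variance model, leaving out each animal, and leaving out libraries that stood apart. The last for the sublingual and muscle-rich libraries were chosen after seeing the data.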

Additional observations from a re-analysis of the deposited data

Results flagged for a closer look

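In 55 sets of 6 libraries (11 members in 5 tissues), the lowest or highest value stood apart in 8. Chance alone gives about 2.75 if the sets are independent and their values normally distributed. The sets share libraries and some values lie near 0 TPM, so the 2 numbers cannot be compared as a test. The measure was the gap to the nearest other value divided by the range, set against Dixon's critical value. In 3 of the 8 the pancreas of animal 4 was lowest: GP2 at 59.2 TPM with the next at 1857 TPM, SPINK1 at 115 TPM with the next at 6902 TPM, and ZG16 at 153 TPM with the next at 4897 TPM. GP2 was also low in the parotid of animal 3, at 6.97 TPM with the next at 32.1 TPM. ZG16 was low in the sublingual gland of animal 2, at 13.7 TPM with the next at 74.0 TPM. SPINK2 was high in the submandibular gland of animal 4, at 4.75 TPM with the next at 0.241 TPM. REG1B was high in the sublingual gland of animal 6, at 1.26 TPM with the next at 0.136 TPM, and in the submandibular gland of animal 1, at 0.236 TPM with the next at 0.0704 TPM.

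Among 110 comparisons of tissue differences between the 4 females and the 2 males, all animals of each sex moved in opposite directions in 2. For REG1A, parotid minus liver, the mean difference of females minus males was -0.91 (log2), and for SYCN, submandibular minus liver, it was 3.33. The difference was not tested in either case, and the number that chance alone gives among the 110 was not worked out. Both rest on low values. SYCN was at 0 in 3 liver libraries, and REG1A did not exceed 1.24 TPM in parotid or 1.56 TPM in liver.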

How the results depend on the processing

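Of 1638 values of 98 single-gene results under alternatives, 1516 kept direction and side of the threshold, 90 lost their call, 18 gained one and 14 reversed. In the pancreas GP2, ZG16, SPINK1, REG1A and REG1B, and in the sublingual gland SPINK8, kept every call in each alternative that tested them. REG1B and SPINK8 had become members through those same tissues. Without the sublingual libraries of animals 1 and 4, reversals were SPINK5 at 0.52 and SPINK7 at 1.83 (pancreas minus sublingual), SPINK5 at 0.066 and SPINK7 at 0.42 (parotid minus sublingual), and SPINK5 at -0.33 and SPINK7 at -1.24 (sublingual minus liver). For sublingual minus liver SPINK7 ran from -0.45 (without animal 4) to 3.35 (without animal 3), and VAMP8 reversed to 0.19 (pancreas minus liver) with quantile normalisation. With trimmed-mean scaling and quantile normalisation, uncalled values turned positive for SPINK1 (parotid minus liver 0.36 and 0.89, submandibular minus liver 0.093 and 0.64) and ZG16 (submandibular minus liver 0.26 and 0.82). The cause was not tested. With at least 5 TPM in 6 libraries, members called fell to 3 in each pancreas comparison and to 0 in the 3 other sublingual comparisons, because fewer members were tested. For parotid against sublingual, 4 calls became 2 with only the 12 libraries compared, trimmed-mean scaling, quantile normalisation, a pseudocount of 0.1 or without the sublingual libraries of animals 1 and 4, and 1 without the muscle-rich libraries. For submandibular against sublingual, 3 became 1 with no replicate block, the 12 libraries, no filter or without the muscle-rich libraries, and 5 without the pancreas and submandibular libraries of animal 4. For sublingual against liver, 3 became 1 with the 12 libraries or a pseudocount of 0.1. For parotid against liver, 0 became 1 with the 12 libraries or without the libraries of animal 4. For submandibular against liver, 0 became 1 with the 12 libraries, trimmed-mean scaling or quantile normalisation, and 2 without the libraries of animal 4. Leaving out 1 animal gave 2 to 4 for parotid against sublingual, 1 to 4 for submandibular against sublingual, 0 to 1 for parotid against liver, 0 to 3 for submandibular against liver, 1 to 3 for sublingual against liver, and 0 to 0 of the 12 exact tests, since 5 animals allow no p below 0.0625. Trimmed-mean scaling left 3 exact tests below 0.05 in place of 7. Dropping the replicate block changed no other member count by over 1.5 times. Over all genes, leaving out 1 animal moved the calls between 947 and 2728 for pancreas against parotid (2141) and between 623 and 3946 against submandibular (1316), and trimmed-mean scaling moved the median of all genes for parotid minus liver from -0.84 to 0.00. Values under about 1 TPM rest on unknown depth.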
